A study of Mus musculus with 6 samples.

Results

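The histone methyltransferases and demethylases are the enzymes that write and erase methyl groups on histones, taken here together with the core subunits that some of them need. They were chosen as a fixed list of gene names, and a transcript belonged to them where the authors' table gave it a name on the list. The list holds 49 of the 35976 gene names, with 340 of the 114412 transcripts in the deposited matrix. By the residue they act on, 17 belong to lysine 4 of histone H3 (H3K4), 13 to H3K9, 6 to H3K27, 6 to H3K36, 1 to H3K79, 1 to H4K20 and 5 to arginines.

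Stranded polyA RNA was sequenced from ovaries of C57Bl6j mouse embryos at E15.5, counted in embryonic days, in 3 control pools and 3 PB pools. The PB pools came from embryos whose mothers had received panobinostat (PB), an inhibitor of histone deacetylases, at 5 mg/kg by oral gavage between E6.5 and E15.5. The labels give this dose per day and the methods give it for alternate days, and the control mothers received DMSO with water. A pool held 4 ovaries by the extraction protocol, 6 to 8 by the design text and no fewer than 8 by the RNA-seq methods. No source used here ties a pool to its litters, so p-values measure the spread between pools only. The counts summed to 103627570, 125985399 and 97165644 in control 1, 2 and 3 and to 100650825, 104696262 and 120143093 in PB 1, 2 and 3.

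Methyltransferases add methyl groups to lysines or arginines of histone tails, and demethylases take them off. Methylated H3K4 marks promoters, methylated H3K36 and H3K79 mark transcribed genes, and methylated H3K9 and H3K27 mark silent chromatin. In oocytes that enter meiosis, PRDM9 methylates H3K4 and H3K36 where recombination starts, and the KDM5 enzymes, which erase H3K4 trimethylation, are found in complexes with histone deacetylases.

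Counts of all transcripts with the same gene name were added to a gene sum, since the authors' software shares reads out between transcripts that overlap. Levels between pools are given in CPM, counts scaled to the effective library size of each pool. Levels between genes are given in TPM, which divides counts by exon length and scales each pool to the same total, without the effective library size. The scales thus differ in how pools are scaled as well as in length. The member Kdm7a, with 1 transcript, had means of 59.0 and 56.5 CPM and of 8.99 and 9.30 TPM in control and PB. Sums over members are given on both scales where pools are compared, and ratios between sums in TPM. Some single genes are also given on both scales where the order of the groups depended on the scale. A gene was tested with edgeR across all genes that passed a filter on low counts, and it was called at a change of at least 2-fold with a false discovery rate (FDR) of at most 0.05. Fold changes are PB against control on the log2 scale, with their standard error (SE). A count of 0 allows up to 3 counts, which is 0.0257 to 0.0319 CPM for gene sums, and such floors cover counting error only.

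The labelled tissue was checked first. Foxl2, a gene of pregranulosa cells, had 155 ± 10.1 CPM in control and 154 ± 16.3 CPM in PB (SD, n = 3 each), and the germ cell gene Ddx4 had 114 ± 21.4 and 111 ± 29.2 CPM. Of 5 Y-linked genes, which ovaries of XX embryos lack, the testis-determining gene Sry had 0 counts in all 6 pools, and the other 4 had few. Kdm5d, the Y-linked relative of the Kdm5 genes, had 0, 0 and 0 counts in control and 5, 3 and 0 in PB, Uty had 4, 0 and 0 and 3, 0 and 0, Ddx3y 4, 0 and 14 and 6, 6 and 27, and Eif2s3y 14, 0 and 11 and 0, 8 and 24. Control 2 alone had 0 counts of all 5, and both groups held pools with Y-linked counts. The 8 germ cell markers summed to 878, 666 and 873 CPM in control and to 945, 553 and 1004 CPM in PB. They were thus lowest in control 2 and in PB 2, and 6 of the 8, which included the most abundant, Dazl, had their lowest level of each group there. No germ cell marker was at 0 in all pools. In bulk RNA, fewer cells of a type and less RNA per cell cannot be told apart.

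All 49 members passed the filter and were tested as gene sums. None of the 49 was called by edgeR, beside 0.0154% of 19437 genes (3 genes), and none was called by DESeq2, beside 0.0539% of the genes for which it gave an adjusted p. At an unadjusted p under 0.05 the members counted 0 with edgeR, against 4.47% of all genes, and 0 with DESeq2, against 3.64%. The lowest p of a member was 0.0827 with an FDR of 0.888 in edgeR (Kdm4d), and the lowest DESeq2 p was 0.0814. The count of 3 over all genes was 9 without PB 2 and 5 without control 1, control 2 or PB 3.

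The median log2 fold change of the members was 0.01, beside 0.00 over all genes, with 26 members above 0 and 23 below. These signs were unsteady, and 25 of the 49 took the other sign under at least 1 of the alternatives, which changed the tool, the filter, the transcripts counted or the pools kept. The counts above and below 0 were 25 and 24 with DESeq2, 30 and 19 without PB 3 and 20 and 29 over transcripts that match RefSeq only. The fold changes ran from -0.11 for Dpy30, a subunit shared by the H3K4 methyltransferase complexes, to 0.37 for Kdm4d, an H3K9 demethylase. With 1 pool left out at a time, Dpy30 ran from -0.17 to -0.07 and Kdm4d from 0.26 to 0.50. The lowest member was then Kdm1b without control 2, Prmt1 without PB 1 and Carm1 without PB 3, and the highest was Suv39h1 without control 1 and Setdb2 without control 3. Single pools counted for most members, and 19 of the 49 took the other sign without some 1 pool, beside 45.4% of all genes. A further 27 kept their sign but moved by over 1.5 times, beside 43.8%, and 3 stayed within 1.5 times, beside 10.7%. The 95% interval of the fold change lay within 2-fold for 49 of 49 members and within 1.5-fold for 46. The other 3 were Kdm4d with an interval of 0.957 to 1.74-fold, Setdb2 with 0.866 to 1.70-fold and Suv39h1 with 0.621 to 1.83-fold. The median coefficient of variation within groups was 6.47% for the members and 10.5% for all genes, and among members it ran from 1.60% (the arginine methyltransferase gene Prmt6) to 36.1% (the H3K9 methyltransferase gene Suv39h1).

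**Figure D1:**
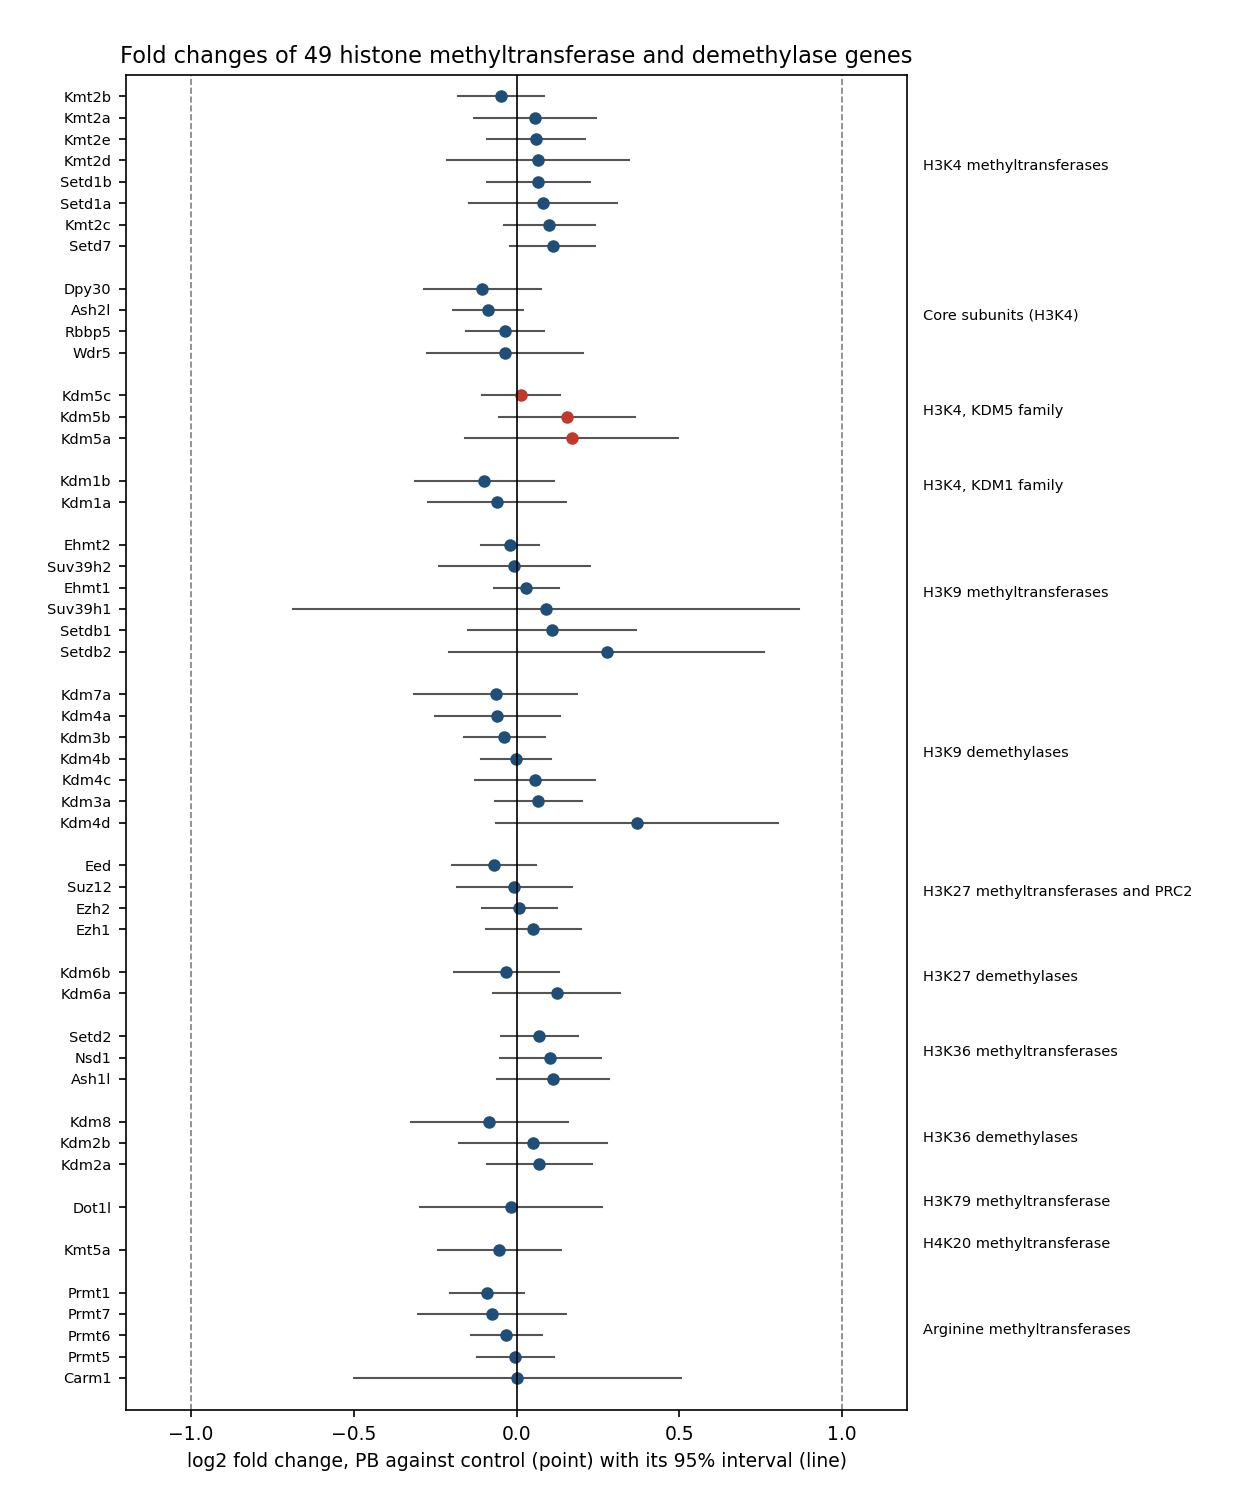
Fold changes of the 49 genes between 3 PB and 3 control pools, by residue and role. The x axis gives the log2 fold change of PB against control from edgeR, points are the estimates, lines their 95% intervals, dashed lines a 2-fold change, and the 3 Kdm5 genes are in red; every interval lies between the dashed lines.

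In CPM the groups of pools did not overlap for 3 members, which are named here after their values were seen. In 1 member every PB pool lay above every control pool, beside 5.10% of all genes, and in 2 every PB pool lay below, beside 5.62%. The first was Setd7, which methylates H3K4 in a single step, with 61.6, 61.7 and 63.5 CPM in control and 65.0, 65.3 and 71.4 CPM in PB (log2 fold change 0.11, SE 0.05). PB 3 stood above the rest, and the gap between PB 1 and control 3 was small. The others were Ash2l, a core subunit of the H3K4 complexes, with 101, 94.7 and 99.7 against 92.5, 93.2 and 92.6 CPM, and Prmt1, the main arginine methyltransferase, with 174, 182 and 175 against 169.7, 171 and 158 CPM. Their log2 fold changes were both -0.09, and edgeR gave the 3 genes the same FDR of 0.888. Without 1 pool, Setd7 ran from 0.07 (without PB 3) to 0.13, Ash2l from -0.12 to -0.07 and Prmt1 from -0.11 to -0.06 (without PB 3). In TPM every PB pool of Setd7 also lay above every control pool, but Ash2l and Prmt1 overlapped. Ash2l had 59.3, 39.6 and 60.7 TPM in control and 60.7, 42.6 and 59.7 TPM in PB. Prmt1 had 189, 184 and 195 TPM in control and 201, 190 and 186 TPM in PB. Both means were higher in PB on that scale. Some other members, such as Kdm5c, Nsd1 and Kmt2e, were also higher in every PB pool in TPM. No share over all genes was taken on that scale, which does not use the effective library size, so these members have no background beside them.

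The median TPM of the members was 33.4. A mean of at least 10 TPM was reached by 44 and of at least 50 TPM by 11, and 2 lay under 5 TPM. Prmt1 had the highest mean with 191 TPM, more than any other member, and Kdm4d the lowest with 1.74 TPM. Together the members summed to 5595, 5361 and 5696 CPM in control and to 5727, 5550.1 and 5845 CPM in PB, and to 1796, 1590.0 and 1841 TPM in control and 1966, 1768 and 1955 TPM in PB. The PB mean lay 2.82% above the control mean in CPM and 8.84% above it in TPM, and the sum was not tested. The TPM value does not use the effective library size, so it also holds the difference in scaling between pools. On both scales control 2 was the lowest of all pools and PB 2 the lowest of its group, and PB 2 lay below control 1 and control 3.

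The 3 Kdm5 genes encode the demethylases that remove H3K4 trimethylation. Kdm5a (chr6:120364099-120444574 in mm10, plus strand) had 300.0, 269 and 292 CPM in control 1, 2 and 3 and 343, 255 and 370.5 CPM in PB 1, 2 and 3. PB 1 and PB 3 lay above every control pool and PB 2 below every control pool, so the groups overlapped. The means were 287 ± 16.2 and 323 ± 60.5 CPM (SD, n = 3 each), giving a log2 fold change of 0.17 (SE 0.14), an edgeR p of 0.258 and an FDR of 0.888. Its 95% interval ran from 0.896-fold to 1.41-fold.

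Kdm5b (chr1:134560178-134632878, plus strand) had 360.5, 328 and 349.9 CPM in control and 401, 337 and 418 CPM in PB. As for Kdm5a, PB 1 and PB 3 lay above the controls, while PB 2 lay within their range. The means were 346 ± 16.5 and 385 ± 42.6 CPM, and the log2 fold change of 0.15 (SE 0.09) had an edgeR p of 0.123 and an FDR of 0.888, with a 95% interval of 0.963 to 1.29-fold. With a replicate block, which pairs pools by number, Kdm5b had an SE of 0.06, a p of 0.0495 and an FDR of 0.783, and it was the only member with a p under 0.05 there, beside 5.61% of all genes. Kdm5c, on the X chromosome (chrX:152233197-152279102, plus strand), had 216, 217 and 221 CPM in control and 218, 234 and 209.7 CPM in PB. Here PB 2 was the highest pool and PB 3 the lowest. In TPM Kdm5c had 31.3, 29.2 and 33.1 in control and 34.5, 34.3 and 33.4 in PB. Every PB pool lay above every control pool on that scale, so the order depended on the scale. TPM does not use the effective library size, and no share over all genes was taken in it. The log2 fold change was 0.01 (SE 0.05), or -0.03 without PB 2, and edgeR gave an FDR of 0.967 and a 95% interval of 0.930 to 1.10-fold.

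Per length, Kdm5b had the highest level of the 3 with a mean of 88.5 TPM, ahead of Kdm5a with 42.9 TPM and Kdm5c with 32.7 TPM. The levels of Kdm5a and Kdm5c came closest in PB 2, with 35.4 and 34.3 TPM, while Kdm5b stood clear of both in every pool. The Kdm5 genes summed to 876, 814 and 863 CPM in control and to 961, 826 and 998 CPM in PB, and to 157, 135 and 159 TPM in control and 189, 150.2 and 195 TPM in PB. On both scales PB 1 and PB 3 were above all control pools and PB 2 lay within their range.

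**Figure D2:**
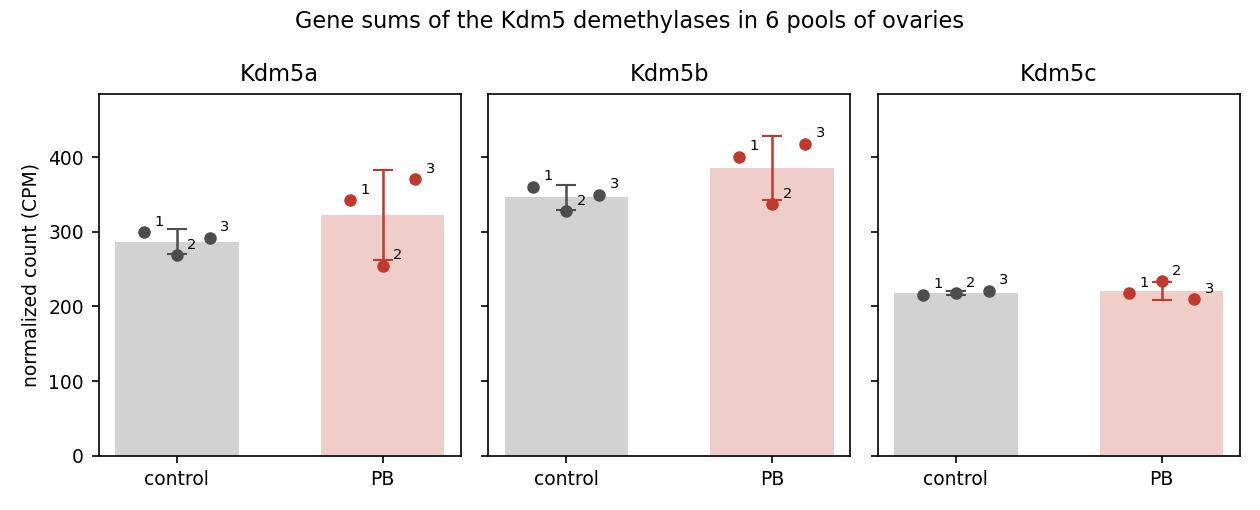
Gene sums of Kdm5a, Kdm5b and Kdm5c in CPM in the 3 control and 3 PB pools. Points are pools with their numbers, bars the group means and lines 1 SD; Kdm5a and Kdm5b are high in PB 1 and PB 3 and low in PB 2, and Kdm5c is level.

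The values of Kdm5a and Kdm5b varied with the pool left out. The log2 fold change of Kdm5a was 0.06 without PB 3, 0.12 without PB 1 or control 2, 0.18 without control 3 and 0.20 without control 1, and that of Kdm5b was 0.09 without PB 3, 0.12 without PB 1, 0.11 without control 2, 0.16 without control 3 and 0.18 without control 1. Both were thus lowest without PB 3 and highest without PB 2. Without PB 2, Kdm5a had a log2 fold change of 0.31 (edgeR p 0.00314, FDR 0.179) and Kdm5b of 0.24 (p 0.00505, FDR 0.211), so both still missed the FDR threshold. In that fit 12.3% of all genes (2442 of 19823) and 10 of the 49 members had an unadjusted p under 0.05, against 868 genes and 0 members with all pools. Of the 10 members, 8 had a higher and 2 a lower level in PB, and the lowest member FDR was 0.130 for Setdb2. Leaving out control 1 or control 2 gave 1 member each (Suv39h1 and Ash2l), leaving out control 3 gave 2 (Ash1l and Kmt2a), and leaving out PB 1 or PB 3 gave 0. Over all genes these fits had a p under 0.05 in 3.06%, 3.67% and 3.72% without control 1, 2 and 3 and in 3.53% and 2.78% without PB 1 and PB 3, so counts of 1 or 2 members were near the background. Both pools numbered 2 were also left out together, a choice made after seeing the data, and 11.4% of all genes and 10 members then had a p under 0.05. Kdm5a had a log2 fold change of 0.27 and Kdm5b of 0.21 in that fit, and Setdb2, an H3K9 methyltransferase gene, had 0.42 with the lowest member FDR of 0.163. With all pools Setdb2 had 0.28, and without 1 pool it ran from 0.16 (without PB 1 or PB 3) to 0.49 (without PB 2).

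Control 2 and PB 2 were each the lowest pool of their group in 15 members, beside 17.2% of all genes. These were Kdm1b, Kdm2b, Kdm3a, Kdm5a, Kdm5b, Kmt2b, Setd1a, Setdb1, Setdb2, Ehmt1, Suv39h2, Ezh2, Dot1l, Wdr5 and Prmt7. In 7 members (Kdm7a, Kmt2e, Kmt5a, Setd1b, Suz12, Dpy30 and Prmt1) both were the highest, beside 18.7% of all genes. Setdb2 showed the first order plainly, with 37.7, 31.9 and 35.5 CPM in control and 48.96, 29.1 and 49.2 CPM in PB. The germ cell markers had the same low pools, and their part in the levels of these members was not tested.

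Among the enzymes of H3K4, 7 of the 8 methyltransferase genes (Kmt2a, Kmt2c, Kmt2d, Kmt2e, Setd1a, Setd1b and Setd7) had a log2 fold change above 0 and Kmt2b one below, with a median of 0.07 and a range of -0.05 to 0.11. Of the 7, Kmt2d had -0.10 without both pools numbered 2 and -0.66 over RefSeq transcripts alone, which held 3.67% to 16.1% of its counts. Above 0 were 5 of the 8 without PB 2, and also 5 of the 8 over RefSeq transcripts alone. Kmt2e is counted with its family, although it has no known methyltransferase activity. Per length, the levels ran from 8.91 TPM for Kmt2a, which encodes a methyltransferase of promoters, to 34.8 TPM for Kmt2e and 38.0 TPM for Setd1a. Kmt2a had 88.2, 89.4 and 105 CPM in control and 95.8, 96.6 and 102 CPM in PB. Control 3 was the highest pool, and the other controls lay below all PB pools. The 4 core subunits (Ash2l, Wdr5, Rbbp5 and Dpy30), which the complexes need for activity, had fold changes below 0 with all pools, with a median of -0.06, but Wdr5 was above 0 without control 1, without PB 2 and without both pools numbered 2. Wdr5 and Rbbp5 lay within 1 SE of 0, and the 4 summed to 309, 290.0 and 299 CPM in control and to 289, 275 and 298 CPM in PB. In TPM their sum was 189 ± 19.2 in control and 195 ± 18.9 in PB, so the mean was lower in PB in CPM and higher in TPM, and the groups overlapped on both scales.

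Dpy30, with the lowest fold change of the 49, had 29.8, 32.3 and 29.7 CPM in control and 26.7, 30.9 and 27.7 CPM in PB. The pools numbered 2 were the highest of each group and the groups overlapped. The KDM1 demethylases, which remove mono- and dimethylation from H3K4, had fold changes of -0.06 (Kdm1a) and -0.10 (Kdm1b). Kdm1a had -0.02 without control 1, -0.15 without control 2, -0.02 without control 3, -0.04 without PB 1, -0.12 without PB 2, -0.03 without PB 3 and -0.20 without both pools numbered 2, and Kdm1b had -0.04, -0.17, -0.10, -0.10, -0.05, -0.16 and -0.11 in the same order. Kdm1b acts in growing oocytes and stood at 10.7 TPM beside 71.0 TPM for Kdm1a. Over the whole residue, Kdm5b was 9.94 times as abundant per length as Kmt2a.

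Of the H3K9 methyltransferase genes, 4 of 6 had a fold change above 0 (Ehmt1, Setdb1, Setdb2 and Suv39h1) and 2 below (Ehmt2 and Suv39h2). Suv39h1, at 0.09, had -0.32 without both pools numbered 2 and 0.52 without control 1, and both Suv39h genes changed sign when any of several single pools was left out. Ehmt2 encodes G9a, the dimethylase of euchromatin, and led this residue with 83.1 TPM. It was also among the steadiest members, with 220.2, 214 and 216 CPM in control and 211, 218 and 212 CPM in PB. No pool stood apart, and the groups overlapped. Suv39h1, which trimethylates H3K9 in heterochromatin, varied most within groups, with 103, 49.1 and 50.4 CPM in control and 63.2, 92.7 and 59.2 CPM in PB. Control 1 and PB 2 were high and the other 4 pools low, so neither group held together.

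The 7 H3K9 demethylase genes divided into 3 above 0 (Kdm3a, Kdm4c and Kdm4d) and 4 below (Kdm3b, Kdm4a, Kdm4b and Kdm7a), but all 7 were above 0 without PB 3 and 2 were over RefSeq transcripts alone. The KDM4 enzymes also act on H3K36, and KDM7A also acts on H3K27. Kdm4d, an intron-poor gene known for its expression in testis, had 2.97, 2.70 and 2.25 CPM in control and 3.86, 2.75 and 3.63 CPM in PB. PB 1 and PB 3 were above every control pool and PB 2 lay below control 1, at a level of 1.74 TPM over all pools. Its log2 fold change ran from 0.26 without control 3 to 0.50 without PB 2, where edgeR gave an FDR of 0.314.

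H3K27 methylation is written by PRC2, with EZH1 or EZH2 as its catalytic subunit and EED and SUZ12 as partners. Ezh1 and Ezh2 had fold changes above 0 and Eed and Suz12 below, all between -0.07 and 0.05, and Ezh2 and Suz12 changed sign without control 2 or PB 3. Ezh2 was the most abundant of this residue with 51.1 TPM and had 87.2, 82.0 and 84.2 CPM in control and 85.2, 82.2 and 87.4 CPM in PB. Ezh1 was the least abundant with 13.7 TPM and had 36.2, 37.2 and 38.2 CPM in control and 38.2, 36.5 and 40.9 CPM in PB. Both genes overlapped between the groups, and the pools numbered 2 were the lowest of each group for Ezh2. The demethylase genes Kdm6a, which is X-linked, and Kdm6b had fold changes of 0.12 and -0.03. Kdm6a had 0.05 without PB 1 and 0.21 without PB 2 (p 0.00370, FDR 0.186), and Kdm6b ran from -0.09 without PB 2 to 0.03 without PB 3 and was above 0 over RefSeq transcripts alone.

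The H3K36 methyltransferase genes Setd2, Nsd1 and Ash1l had fold changes above 0 (0.07, 0.10 and 0.11), but below 0 over RefSeq transcripts alone (-0.29, -0.14 and -0.13). The RefSeq share of their counts varied between pools within groups. For Setd2 it was 78.0%, 14.9% and 11.3% in control and 14.8%, 54.5% and 10.4% in PB. For Nsd1 it was lowest in PB 1 with 4.93%, and for Ash1l it was lowest in PB 3 with 53.9%. Without 1 pool the fold changes of Setd2, Nsd1 and Ash1l ran from 0.03 to 0.10, from 0.06 to 0.14 and from 0.07 to 0.18. These genes summed to 515, 502 and 556 CPM in control and to 548, 557 and 577 CPM in PB, and to 76.4, 68.6 and 80.4 TPM in control and 85.7, 83.1 and 86.9 TPM in PB. In CPM PB 1 lay below control 3 and the groups overlapped, and in TPM every PB pool lay above every control pool, so the order depended on the scale. TPM does not use the effective library size, and no share of genes or groups without overlap was taken in TPM. The other 12 role groups overlapped on both scales. Of the demethylases, Kdm2b led with 48.6 TPM and had 123, 109.6 and 117 CPM in control and 124, 104 and 132 CPM in PB. Kdm8, with 3.73 TPM, had 6.15, 6.48 and 6.52 CPM in control and 6.02, 6.56 and 5.49 CPM in PB. In Kdm2b the PB pools lay on both sides of the controls, and in Kdm8 PB 3 was the lowest pool. Kdm2a had a fold change of 0.07, with 0.03 without PB 1, 0.14 without PB 2 and -0.06 over RefSeq transcripts alone.

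Dot1l, the methyltransferase of H3K79, had 89.1, 69.8 and 96.9 CPM in control and 85.6, 82.4 and 84.9 CPM in PB, at 18.5 TPM. The control pools varied more than the PB pools and enclosed them. Kmt5a, which monomethylates H4K20, had 76.2, 87.0 and 75.9 CPM in control and 74.4, 82.9 and 73.1 CPM in PB, with the pools numbered 2 highest in each group. Among the arginine methyltransferases, Carm1 had a fold change of 0.00 and the other 4 (Prmt1, Prmt5, Prmt6 and Prmt7) lay below 0, down to -0.09, but Prmt5 and Prmt7 changed sign when some single pools were left out. Carm1 had no steady sign and ran from -0.23 without PB 3 to 0.16 without control 3, with -0.05 without control 1, -0.09 without control 2, -0.01 with the block and -0.00 with DESeq2, without the filter and under a stricter filter, which asks for 10 counts in each of the 3 pools of either group. Prmt6 had the lowest level of them with 23.2 TPM and stayed within a narrow band, with 42.7, 42.2 and 41.4 CPM in control and 41.2, 41.9 and 40.5 CPM in PB. The groups overlapped by a single pair of pools. Carm1 was the loosest, with 189, 177 and 247 CPM in control and 159.7, 189 and 266 CPM in PB, and the pools numbered 3 were its highest in each group.

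The summed TPM of the methyltransferases of a residue was divided by that of its demethylases in each pool. For H3K4 the ratio was 0.633 ± 0.0388 in control and 0.631 ± 0.0348 in PB (SD, n = 3 each). For H3K9 it was 1.40 ± 0.124 and 1.43 ± 0.0580, for H3K27 1.16 ± 0.0498 and 1.15 ± 0.0678, and for H3K36 0.829 ± 0.00883 and 0.843 ± 0.0959. In all 4 residues the groups overlapped and the means differed by less than the larger SD. Each enzyme was assigned to 1 residue for this, and the core subunits of the complexes were left out. The H3K4 methyltransferases here include Kmt2e with 34.8 TPM, although it has no known methyltransferase activity.

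The 340 transcripts of the members were taken singly next, as the authors' software had divided the reads among them. Of these, 38 had 0 counts in every pool and 248 passed the filter. The spread between pools was far wider at this level, with a biological coefficient of variation of 98.4% for transcripts against 20.95% for genes. None of the 248 was called by edgeR, beside 0.0332% of 51227 transcripts (17 transcripts). By DESeq2, 4 were called, beside 1.85% of all transcripts. At an unadjusted p under 0.05, edgeR counted 6 member transcripts (2 higher and 4 lower in PB), beside 3.56% of all, and DESeq2 counted 16 (8 higher and 8 lower), beside 7.17%. The edgeR count of 6 was 18 without PB 2, 11 without PB 1, 4 without PB 3, 4 with the replicate block, 16 without both pools numbered 2 and 9 without any 1 of the control pools or under the stricter filter, and the count of 17 over all transcripts was 0 without control 1, 1 without control 3, 2 without PB 1 and 9 without PB 3. Over all transcripts, a p under 0.05 came in 5.45% without PB 2, 4.09% without PB 1, 4.24% without PB 3, 2.42% with the block, 6.69% without both pools numbered 2, 3.89%, 4.25% and 4.21% without control 1, 2 and 3 and 4.73% under the stricter filter. The members had such a p in 2.42% with all pools and in 7.09% without PB 2, 4.23% without PB 1, 1.57% without PB 3, 1.61% with the block, 6.504% without both pools numbered 2, 3.49%, 3.53% and 3.47% without control 1, 2 and 3 and 4.07% under the stricter filter.

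In 9 member transcripts every PB pool lay above every control pool, beside 4.92% of all transcripts, and in 8 every PB pool lay below, beside 5.03%. The lowest p belonged to the assembled Setd2 transcript MSTRG.19253.11, with 960, 1687 and 455 counts in control and 0, 0 and 0 in PB. It was not detected in any PB pool down to the floor of 3 counts per pool. By that floor it was at least 340.0-fold lower there, which covers counting error only and not the division of reads among transcripts. The edgeR test gave it a p of 0.000698 and an FDR of 0.249, and DESeq2 an FDR of 3.46e-15. It made up 7.28%, 10.3% and 3.26% of the Setd2 counts in the control pools. The Setd2 sum, for the enzyme that trimethylates H3K36, had a log2 fold change of 0.07.

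The Ash2l transcript NM_001286207.1 had 20, 76 and 11 counts in control and 1260, 155 and 1118 in PB. All PB pools were above the controls, PB 2 by the least, giving a log2 fold change of 4.61 (SE 1.16), an edgeR FDR of 0.904 and a DESeq2 FDR of 0.00175. The log2 fold change ran from 4.10 without PB 1 to 5.63 without control 2, and was 6.12 without both pools numbered 2. The division of Ash2l also differed between pools, with the transcript XM_011242136.1 at 72.5%, 0% and 32.0% of the Ash2l counts in control and 72.1%, 0% and 34.8% in PB. For this transcript the pools with the same number were close to each other, and the pools of 1 group were not.

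The Kdm1b transcript XM_006516913.3 had 84, 62 and 40 counts in control and 14, 1 and 3 in PB. Every PB pool was lower, with a log2 fold change of -3.34 (SE 1.07), an edgeR p of 0.0252, an FDR of 1.00 and a DESeq2 FDR of 0.0537. The log2 fold change ran from -4.98 without PB 1 to -2.84 without PB 2. These counts are a small part of Kdm1b, whose transcript NM_172262.3 held 95.7% of the gene's counts. The Kmt2c transcript XM_006535696.3 had 505, 282 and 526 counts in control and 1312, 712 and 998 in PB, with an edgeR p of 0.0454. All PB pools were above the controls here, and PB 2 and control 2 were the lowest of each group. The Kdm3b transcript NM_001081256.1 had 12176, 14762 and 13804 counts in control and 10220, 11702 and 12572 in PB, lower in every PB pool once divided by depth (log2 fold change -0.28, edgeR p 0.0206), while the Kdm3b sum had a fold change of -0.04. Over RefSeq transcripts alone the Kdm3b sum held the same counts as NM_001081256.1, so it is not a separate observation. That sum had -0.29 (edgeR p 0.00982, FDR 0.917), the only member with a p under 0.05 there, beside 4.18% of all genes.

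A pair of transcripts called by DESeq2 is named after the values were seen. The Nsd1 transcript XM_011244496.2 had 723, 16 and 1113 counts in control and 5, 11 and 19 in PB, with an edgeR p of 0.0170 and a DESeq2 FDR of 0.00264. Control 2 was as low as the PB pools, so the groups overlapped. The Dot1l transcript XM_006513430.1 had 0 counts in all control pools and 0, 2992 and 3647 in PB, with a DESeq2 FDR of 0.0328, and it did not pass the edgeR filter. PB 1 was at 0 like the controls. The remaining 5 transcripts of the 10 with the lowest edgeR p among those without overlap were XM_011248213.2 of Kdm2b, XM_017312617.1 of Kdm5b, NM_001252476.1 of Prmt1, XM_006531722.3 of Kdm2a and NM_001038695.3 of Kdm3a, with p between 0.0568 and 0.119.

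Whether the transcripts of a gene moved against each other was tested for the 46 members with at least 2 tested transcripts. None passed an FDR of 0.05 in edgeR, beside 1.10% of 10360 genes, and this test was not run in DESeq2. At an unadjusted p under 0.05 there were 4, beside 4.90% of all genes, namely Nsd1 (p 0.00310, FDR 0.172), Carm1 (p 0.0148), Setd2 (p 0.0214) and Kdm5c (p 0.0248). Nsd1 had an FDR of 0.0378 under the stricter filter. Without PB 1, Dot1l passed with an FDR of 0.000830, and without any other single pool no member passed. Over all genes tested for usage, 2.53% passed under the stricter filter and 1.17% without PB 1, and the 1 member was 2.27% and 2.17% of those tested there. The most abundant transcript was the same in all 6 pools for 33 of the 46, beside 56.1% of all such genes. In 13 members 1 transcript held over 90% of the counts, Kdm5b among them with 99.6% in NM_152895.2.

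Kdm5a was divided between a pair of long transcripts. NM_145997.2, of the RefSeq annotation, had 17911, 8654 and 16664 counts in control and 21463, 7189 and 26669 in PB. MSTRG.15517.2, assembled by the authors, had 11323, 22565 and 10752 counts in control and 12302, 18582 and 16094 in PB. Control 2 and PB 2 were the lowest of their group in the first and the highest in the second, and the groups overlapped in both. The assembled transcript has an additional exon of 82 bases (chr6:120438444-120438525), and its share of the Kdm5a counts was 38.4%, 72.0% and 39.1% in control and 36.2%, 71.4% and 37.4% in PB. The share was thus nearly alike in control 2 and PB 2 and set apart from the other 4 pools, whatever the treatment. Counted over the RefSeq transcripts alone, Kdm5a had a log2 fold change of 0.26 with an edgeR p of 0.647.

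The exon lies between the last pair of coding exons of Kdm5a and is annotated in a GENCODE transcript without a coding region (Kdm5a-207, GRCm38). Read on in the frame of the coding transcript Kdm5a-201, it meets a stop codon at its base 40, as its codon 14. The exon is shown up to that stop codon, which is in capitals, because this stop codon comes before the last coding exon of Kdm5a.
Kdm5a exon, chr6:120438444-120438485, plus strand: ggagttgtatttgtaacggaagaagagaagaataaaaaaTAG

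Kdm5c had 12 transcripts, and PB 3 was unlike the other pools in how its counts were divided. MSTRG.20112.10 had 14772, 18827 and 15158 counts in control and 15460, 17163 and 768 in PB, and MSTRG.20112.11 had 2527, 2643 and 2240 counts in control and 2582, 2644 and 1159 in PB. Both were the lowest in PB 3. The RefSeq transcript XM_017318443.1 had 288, 282 and 240 counts in control and 228, 238 and 9025 in PB, so that PB 3 alone was high. The RefSeq transcripts together made up 13.3%, 11.5% and 12.2% of the Kdm5c counts in control and 11.7%, 12.8% and 90.7% in PB. Counted over them alone, Kdm5c had a log2 fold change of 1.60 with an edgeR FDR of 0.917, with PB 3 alone high among the pools.

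The features that varied by over 20 percentage points between pools came down to 3 choices of exon or intron. An intron of 149 bases (chrX:152272902-152273050) is removed from the last coding exon in transcripts that held 81.6%, 84.7% and 83.5% of the Kdm5c counts in control and 83.6%, 82.9% and 7.91% in PB. An exon of 138 bases (chrX:152270694-152270831) was part of transcripts with 80.3%, 83.6% and 82.6% in control and 81.2%, 82.6% and 37.2% in PB. An exon that ends 9 bases later (chrX:152271860-152271938 instead of 152271929) was in transcripts with 22.5%, 19.0% and 19.8% in control and 21.6%, 21.8% and 52.8% in PB. In all 3, PB 3 stood alone and the other 5 pools were close to each other. The features lie on the same transcripts, so they are not separate observations, and the reads over the single junctions were not analysed here.

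The sequences of the 3 features show what the transcripts gain or lose within the coding region, all on the plus strand of mm10 and read from GENCODE transcripts. In the first, capitals mark the first and last bases of the alternative intron, with 20 bases on each side, and in the last they mark the 9 bases that the shorter exon lacks, which begin with GT. The second has no capitals, and the lengths of 138 and 9 bases keep the reading frame while 149 does not. With the intron removed, the annotated stop codon moves from chrX:152273072-152273074 to chrX:152273170-152273172 (Kdm5c-205).
Kdm5c alternative intron, chrX:152272882-152273070: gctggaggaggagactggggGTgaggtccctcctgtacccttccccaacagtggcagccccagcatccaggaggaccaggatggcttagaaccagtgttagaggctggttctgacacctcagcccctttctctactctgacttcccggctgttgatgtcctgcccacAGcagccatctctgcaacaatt
Kdm5c cassette exon, chrX:152270694-152270831: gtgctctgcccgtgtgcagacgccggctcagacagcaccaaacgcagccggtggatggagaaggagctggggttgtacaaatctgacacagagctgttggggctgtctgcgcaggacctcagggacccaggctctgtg
Kdm5c longer exon, chrX:152271860-152271938: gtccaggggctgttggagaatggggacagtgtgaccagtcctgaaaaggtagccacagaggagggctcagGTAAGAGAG

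**Figure D3:**
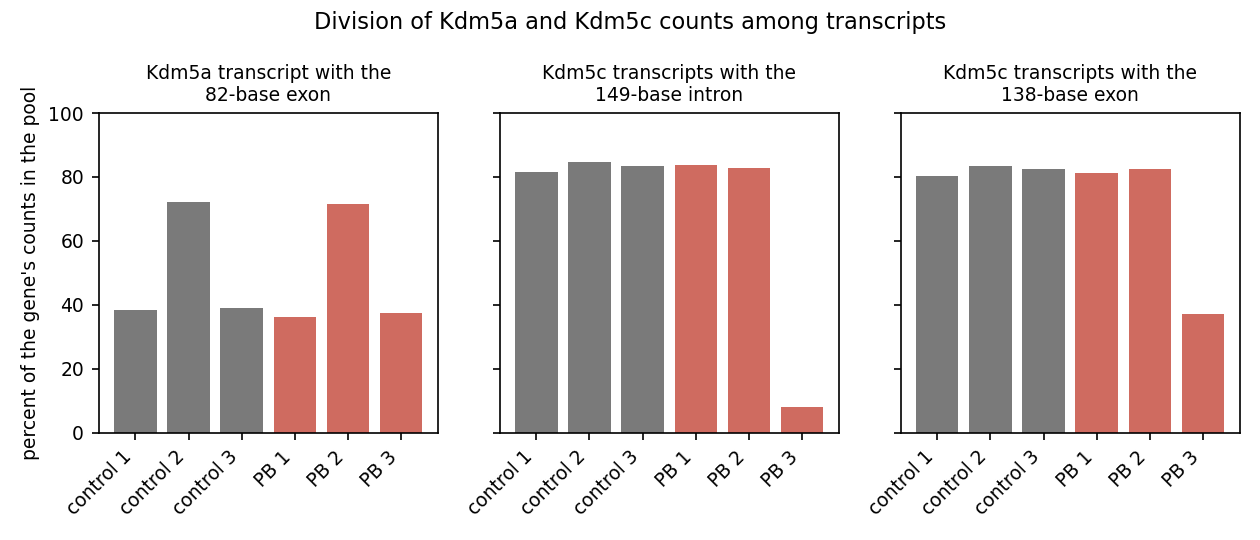
Percent of the counts of Kdm5a or Kdm5c in each pool that lie in transcripts with the 82-base exon of Kdm5a, the 149-base intron of Kdm5c and the 138-base exon of Kdm5c. Bars are single pools, control in grey and PB in red; the Kdm5a exon is high in control 2 and PB 2, and both Kdm5c features are low in PB 3 alone.

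Ezh2, chosen after its values were seen, was divided like Kdm5a. The RefSeq transcripts held 37.4%, 90.1% and 27.1% of its counts in control and 26.96%, 93.8% and 25.8% in PB. Control 2 and PB 2 were again alike and apart from the rest, and the transcript XM_006505528.1 had 3818 and 2408 counts in these pools and 0 in the other 4. Other members differed between these pools, and no tally over the members was made. The RefSeq transcripts held 23.2% of the Setd1a counts in control 2 and 85.0% in PB 2, and 14.9% and 54.5% of the Setd2 counts. The Ezh2 sum had a log2 fold change of 0.01, which turned to -0.09 over RefSeq transcripts alone. Exons of 4 members (Setd1a, Setdb2, Rbbp5 and Carm1) overlap those of another gene name on the same strand, and their division from that gene is uncertain. Exons of 13 overlap another gene name on the opposite strand, those of Kmt2d overlap a transcript without gene name there, and 32 have no overlap of either kind.

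Other genes of histone methylation were followed as a list of 56, of which 54 had a gene name in the files and 52 were tested. None was called by edgeR, and 4 of the 52 had an unadjusted p under 0.05, beside 4.47% of all genes, with Prdm2, Jmjd1c and Hr higher in PB and Phf19, a PRC2 accessory gene, lower. Their median log2 fold change was -0.00, with 25 above 0 and 27 below. Prdm9, the meiotic methyltransferase, had 33.4, 35.2 and 40.0 CPM in control and 60.02, 29.9 and 54.9 CPM in PB (log2 fold change 0.42, edgeR p 0.140, FDR 0.888, from 0.22 without PB 1 to 0.67 without PB 2). PB 1 and PB 3 were above every control pool and PB 2 below, the order also seen for Kdm5a. Jarid2, a PRC2 partner without demethylase activity, had 874, 940.4 and 859 CPM in control and 686, 907 and 734 CPM in PB (log2 fold change -0.20, edgeR p 0.111, FDR 0.888, from -0.33 without PB 2 to -0.12 without PB 1). PB 1 and PB 3 were its lowest pools, and PB 2 lay among the controls. Its mean of 3899 TPM lay far above its CPM, while the mean of 18.6 TPM for Prdm9 lay below its CPM. Transcripts of short exon length thus entered the Jarid2 sum, and their share of its counts was not examined.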

How the data were processed

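The authors used HISAT2 2.1.0 for alignment to mm10 and StringTie 1.3.5 for transcript assembly, and the deposited matrix holds their raw counts (count) per transcript. Groups came from titles and treatment labels, since the design text calls all libraries, controls too, exposed. Gene names came from the authors' table, whose 6 normalized per-pool columns, fold changes and p-values were not used, and 3.05% to 4.49% of counts had no name. Members and lists were chosen with earlier results of these data known. Gene sums and transcripts went through edgeR 4.0.16 under R 4.3.3 (TMM, filterByExpr minimum count 10 and minimum total 15, quasi-likelihood F-test) and transcript usage with diffSpliceDGE and Simes p-values. FDR is Benjamini-Hochberg over all features tested. The alternatives were DESeq2 1.42.0 (Wald test, size factors), no filter, 10 counts in all 3 pools of a group, a replicate block, known transcripts only (those that match RefSeq) and leaving out each pool. Leaving out both pools numbered 2 was chosen after seeing the data. Named were the 3 Kdm5 genes, the most and least abundant member of each residue, Kdm5 transcripts with at least 5% of the gene's counts and the 10 non-overlapping member transcripts with the lowest p. Cell type lists served to check the tissue. Exons and sequences came from GENCODE vM21 (GRCm38). The procedure was tested on simulated data.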

Additional observations from a re-analysis of the deposited data

How the results depend on the processing

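Among the named genes, 185 of 195 values under the alternatives kept their direction and their side of the threshold, 4 of them moved by at least 1 SE, and 10 reversed. Among the named transcripts 181 of 191 kept both, 7 of them moved by at least 1 SE, 8 reversed and 2 were now past the threshold. Genes called numbered 3, and 11 with DESeq2, 0 with the replicate block, 8 over known transcripts only, 10 without both pools numbered 2 and 3 to 9 without 1 pool (9 without PB 2). No member gene was called under any of them with edgeR or DESeq2, and members with a p under 0.05 numbered 0 with both tools, 1 with the block (5.61% of all genes), 1 over known transcripts only (4.18%), 10 without both pools numbered 2 (11.4%) and 0 to 10 without 1 pool (10 without PB 2, 12.3%). Transcripts called numbered 17, and 1172 with DESeq2, 39 under the stricter filter, 0 with the block, 2 without both pools numbered 2 and 0 to 19 without 1 pool. Member transcripts called numbered 4 with DESeq2, and those with a p under 0.05 numbered 6, with 16 in DESeq2 (7.17% of all transcripts), 16 without both pools numbered 2 (6.69%) and 4 to 18 without 1 pool. Members with changed usage numbered 1 under the stricter filter and 0 to 1 without 1 pool (Dot1l without PB 1), beside 2.53% of all genes under that filter and 1.17% without PB 1. The log2 fold change reversed without both pools numbered 2 for Kdm5c (-0.032) and over known transcripts only for Ezh2 (-0.086) and Dot1l (0.038). Without 1 pool it ran from 0.057 to 0.31 for Kdm5a, 0.092 to 0.24 for Kdm5b, -0.031 to 0.049 for Kdm5c, -0.17 to -0.068 for Dpy30, -0.016 to 0.031 for Ezh2, -0.024 to 0.14 for Kdm2b, -0.14 to 0.080 for Dot1l, -0.11 to 0.011 for Kmt5a, -0.10 to 0.38 for MSTRG.15517.2, -0.051 to 0.63 for NM_145997.2, -0.96 to 0.038 for MSTRG.20112.10, -0.42 to 0.11 for MSTRG.20112.11, -0.19 to 3.93 for XM_017318443.1, -4.98 to -2.84 for XM_006516913.3 and 4.10 to 5.63 for NM_001286207.1. The causes were not tested. No source says whether pools of the same number belong together, and the values do not settle it. Across genes, which are not independent replicates, deviations from the group means correlated at 0.0933, 0.147 and -0.0179 between pools of the same number. Of the 9 pairs, control 2 and PB 2 had the highest value, while PB 3 correlated more with control 1 (0.0964). The block lowered the SE of 11 of the 16 named transcripts and raised it for 5, for example from 0.57 to 0.12 for NM_145997.2 and from 1.05 to 1.41 for MSTRG.20112.10, and it gave XM_017318443.1 a log2 fold change of 1.14 in place of 3.39.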

Other observations

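The other cell type lists overlapped between the groups in their summed CPM. Pregranulosa cell genes (6, Wnt4 the most abundant) summed to 812, 762 and 759 in control and to 794, 784 and 698 in PB, and Sertoli cell genes (4) to 31.3, 23.6 and 33.2 and to 22.5, 25.9 and 23.1. Leydig and adrenal cell genes (5) summed to 58.6, 61.5 and 55.5 in control and to 31.4, 59.99 and 55.3 in PB, with PB 1 low. Mesonephros genes (4) had 14.8, 16.1 and 31.3 against 15.8, 20.4 and 13.9, with control 3 high. Interstitial cell genes (4) had 624, 622 and 712 against 594, 617 and 648, endothelial genes (4) 289.7, 294 and 321 against 282, 298 and 286, and macrophage genes (4) 38.1, 41.6 and 40.5 against 34.7, 39.2 and 40.9. Red blood cell genes (5) had 23262, 31587 and 14720.4 against 19872, 18037 and 18528, with control 2 the highest and control 3 the lowest. The 5 Y-linked genes had 0.224, 0 and 0.265 against 0.141, 0.166 and 0.439. None of these genes was called by edgeR, and 2 had an unadjusted p under 0.05 (4.47% of all genes), Dmrt1 of the Sertoli list and Hba-a2 of the red blood cell list, both lower in PB. Dmrt1 was the only 1 of the 4 Sertoli list genes with such a p, and which cells expressed it was not tested. Of the germ cell markers, Dppa3 and Pou5f1 had such a p and were lower in PB. Their part in the levels of the histone methylation genes was not tested.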
